A study of Homo sapiens with 114 samples.

Results

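The genes described here are 36 human genes that each extend over a very large stretch of the genome, most of them over more than 500 kb. They were chosen by their changes in the treated against control comparisons of this study, so those changes are given as descriptions with no test. Of the 36 genes, 35 had a named probe set among the 19775 genes of the table. The level of MAGI1 was not analysed here, and the gene enters only the promoter counts. The measured span from the first to the last base of the gene ran from 418.0 kb in FTO to 2298.8 kb in PTPRD, with a median of 757.9 kb, against a median of 24.73 kb over all genes of the table. The genes lay on 17 chromosomes, with 7 of them on chromosome 3, and 741 other genes of the table also spanned 300 kb or more.

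The RNA came from HK-2, an established and immortalized human line with the character of kidney proximal tubule epithelium, grown in a hormone-supplemented medium. All arrays carried this cell line, in 38 groups of 3 replicates that the labels call biological. Both a high and a low dose were used of Aa, Nnm and Kbr, with RNA taken after 24 and 48 h, and of Ota, with RNA taken after 24 and 72 h. The other compounds, CdCl, Di, CsA, Fk and Ra, were used at 1 dose, with RNA taken after 12 and 48 h. Control cultures received the vehicle for the same time, and Nnm shared its controls with Kbr, Fk with Ra, and CdCl with Di. Compounds are named by the abbreviations of the labels, and the labels give doses only as high or low. Replicates differ as cultures of 1 line do, so the errors below describe these cultures.

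Most of the length of such a gene is intron, which is transcribed and then removed, so the messenger RNA need not be longer than that of a short gene. RNA polymerase II has to travel the whole span for each transcript, and it therefore needs far longer to finish a very long gene than a gene of usual span. Several of these genes, among them FHIT and WWOX, contain common fragile sites, regions that tend to break when DNA replication is slowed. The encoded proteins have unlike tasks. They include receptor phosphatases and matrix proteins of the cell surface, exocyst and Rab regulators of membrane traffic, cytoskeletal linkers, and regulators of chromatin, transcription and RNA.

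The upper quartile of the log2 values of an array lay between 6.091 and 7.178, and pairs of arrays in a group correlated at 0.976 to 0.997 over genes. Arrays of Ota high 24 h stood apart, with upper quartiles of 6.553, 6.319 and 6.593 and the pair of lowest correlation, as did replicate 2 of Ra 48 h, the lowest of all at 6.091. All 5 epithelial markers (KRT8, KRT18, KRT19, EPCAM and CDH1) had a median above log2 4 over the control arrays, though CDH1 read 3.03 on its lowest. Such a median was found for 2 of 10 proximal tubule markers in the table, DPP4 and PAX8. None of the podocyte, loop of Henle, collecting duct, endothelial or leukocyte markers passed that level, and 2 of 4 stromal markers, ACTA2 and COL1A1, did. In bulk RNA, fewer cells of a kind and less RNA per cell cannot be told apart.

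A gene was tested in a family, meaning a control group and the compounds that share it, when 3 or more arrays of the family read above log2 4. Of the 36 genes, 28 passed in all 6 families. BCAS3, AUTS2, PRKG1 and PDE4D passed in none, FHIT only in the Ota family, MACROD2 not in the Aa or the Fk and Ra family, and DPYD not in the Fk and Ra family. In the Aa family 29 of the very long genes were tested, and 4 of these (DPYD, PTPRD, RBMS3 and RAD51B) passed only through their control arrays. The same holds for FHIT with Ota, and for RAD51B with Nnm and Kbr and with Fk and Ra. The filter thus favoured a fall against control in them, and nothing is read from its direction. MACROD2 with CsA passed only with control and treated arrays counted together. Its readings above log2 4 were 5.42 and 5.08 with CsA at 48 h and 5.56 and 4.6 in the 48 h controls. Just inside the limit were RAD51B and DPYD, with mean control levels of 4.33 and 4.69 in the Aa family. Just outside were MACROD2, BCAS3 and FHIT, at 3.64, 3.04 and 2.48.

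Sequences upstream of the start of 5 genes are shown so that the region where transcription begins can be set beside the changes that follow. PTPRG, EXOC4, TBC1D5 and SMYD3 were among the 5 largest falls with the high dose of Aa at 48 h, and FOXP1 was among the 3 smallest. Each is the 250 bases before the gene's RefSeq start in GRCh38.p14, 5′ to 3′ on the gene's strand. PTPRG lies on the plus strand (chr3:61561321-61561570), as does EXOC4 (chr7:133252828-133253077). TBC1D5 (chr3:17740908-17741157), SMYD3 (chr1:246507280-246507529) and FOXP1 (chr3:71583729-71583978) lie on the minus strand. Capitals mark matches, on either strand, to the GC box GGGCGG, the CCAAT box CCAAT or the TATA box TATAAA.
PTPRG: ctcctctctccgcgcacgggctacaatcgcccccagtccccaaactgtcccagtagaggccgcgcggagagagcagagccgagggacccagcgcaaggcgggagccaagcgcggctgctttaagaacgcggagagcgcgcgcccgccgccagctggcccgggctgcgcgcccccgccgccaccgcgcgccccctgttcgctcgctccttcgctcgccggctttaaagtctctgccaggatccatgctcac
EXOC4: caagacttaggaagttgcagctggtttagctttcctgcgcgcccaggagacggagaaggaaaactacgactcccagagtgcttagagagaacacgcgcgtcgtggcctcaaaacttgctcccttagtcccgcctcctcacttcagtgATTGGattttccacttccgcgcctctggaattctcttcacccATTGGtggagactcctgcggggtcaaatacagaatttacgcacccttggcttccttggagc
TBC1D5: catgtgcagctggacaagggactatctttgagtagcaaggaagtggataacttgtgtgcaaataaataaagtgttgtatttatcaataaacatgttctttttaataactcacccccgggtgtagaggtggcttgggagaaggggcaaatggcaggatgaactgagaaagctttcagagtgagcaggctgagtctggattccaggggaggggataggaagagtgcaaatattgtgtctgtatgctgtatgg
SMYD3: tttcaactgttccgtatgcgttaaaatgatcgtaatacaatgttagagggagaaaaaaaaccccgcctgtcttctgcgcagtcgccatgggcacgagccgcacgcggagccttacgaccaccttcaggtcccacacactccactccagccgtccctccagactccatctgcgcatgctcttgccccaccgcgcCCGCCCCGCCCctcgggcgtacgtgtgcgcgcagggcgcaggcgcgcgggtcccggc
FOXP1: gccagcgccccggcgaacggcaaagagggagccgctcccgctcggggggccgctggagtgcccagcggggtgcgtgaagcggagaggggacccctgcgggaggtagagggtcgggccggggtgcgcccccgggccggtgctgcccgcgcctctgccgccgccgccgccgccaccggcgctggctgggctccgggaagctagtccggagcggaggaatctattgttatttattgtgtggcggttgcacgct

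EXOC4 held 2 CCAAT boxes, both on the opposite strand, and SMYD3 held 2 overlapping GC boxes. PTPRG, TBC1D5 and FOXP1 held none of the 3 motifs in this window. Upstream GC content was 71.2% in PTPRG, 53.6% in EXOC4, 44.4% in TBC1D5, 63.2% in SMYD3 and 74.0% in FOXP1. Genes with large falls thus had both GC-rich and GC-poor starts, and FOXP1, with a small fall, had the most GC-rich of the 5.

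Over the 33 very long genes with a promoter in the RefSeq table, the median GC content was 62.4%, with a range from 29.6% to 82.8%. It was 62.4% over 15382 genes of the array and 63.2% over 597 other genes of 300 kb or more. A GC box was found in 17 of the 33 (51.5%), against 56.3% of the array's genes and 42.3% of all 27305 promoters of the table. A CCAAT box was found in 5 (15.2%), against 34.1% and 33.0%. A TATA box was found in 1 (3.03%), that of GPC6, against 8.31% and 11.1%. The table gives 1 start per gene, and several of these genes have more than 1 start, so a window without a match says only that these letters are not in it. PARD3, EXOC6B and VPS13B were not matched.

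In cultures given the high dose of Aa for 48 h, every one of the 29 very long genes tested was lower than in the control. The median change was −4.30 on the log2 scale, the largest was in the receptor phosphatase PTPRG and the smallest in NBEA, a protein of vesicle traffic. All 29 were called lower, meaning an adjusted p under 0.05 by limma, with Benjamini-Hochberg adjustment across every gene tested, as were 34.5% of the 11106 genes tested. In all 29 each treated array lay below each control array, as in 36.4% of all genes. A change of −4 or lower was reached by 17 of them and by 1.06% of all genes. In 17 the mean went from at least log2 4 to below it, which was not counted over all genes. The genes were selected on these contrasts, and 4 of the 29 passed the filter only through their control arrays. Nothing is read from these shares.

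PTPRG read 9.85, 9.96 and 9.08 on the control arrays of 48 h and 5.07, 2.78 and 2.84 with the high dose, a change of −6.07 ± 0.63 (SE, n = 3 against 3), or 67.2-fold. ANK3, the ankyrin that ties membrane proteins to the spectrin skeleton, read 10.38, 10.32 and 8.90 in controls and 6.02, 2.85 and 2.67 with the high dose, a change of −6.02 ± 1.11. In both genes replicate 1 of the high dose kept the highest level of its group, and even that array was far under the lowest control.

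EXOC4, a subunit of the exocyst that tethers secretory vesicles, read 9.26, 9.23 and 9.15 in controls and 3.91, 2.86 and 2.88 with the high dose, a change of −6.0 ± 0.50. TBC1D5, a Rab GTPase-activating protein of endosomal sorting, went from 8.63, 8.90 and 8.67 to 3.63, 2.49 and 2.51, a change of −5.86 ± 0.40. The control arrays of these traffic genes lay close together, and no treated array reached log2 4.

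SMYD3, a lysine methyltransferase, read 9.28, 9.45 and 9.28 in controls and 5.46, 2.23 and 2.89 with the high dose, a change of −5.81 ± 0.79. DIAPH2, a formin that builds actin filaments, went from 8.55, 8.64 and 8.25 to 2.98, 3.02 and 2.39, a change of −5.68 ± 0.88. In DIAPH2 all 3 treated arrays were near the bottom of the scale, whereas in SMYD3 replicate 1 stood above the other two.

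FRAS1, a protein of epithelial basement membranes, went from 10.75, 10.61 and 9.68 to 6.43, 3.52 and 4.11, a change of −5.66 ± 0.59. LPP, a protein of focal adhesions, went from 10.83, 10.73 and 10.49 to 7.09, 3.48 and 4.84, a change of −5.55 ± 0.59. Both had high control levels, and their treated arrays spread widely without reaching the control range.

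The 3 smallest falls were of another order. NBEA read 6.08, 6.04 and 5.07 in controls and 4.94, 4.59 and 4.97 with the high dose, a change of −0.90 ± 0.25 in which the lowest control lay just above the highest treated array. FOXP1, a forkhead transcription factor, went from 8.51, 8.68 and 8.44 to 7.71, 7.39 and 6.71, a change of −1.27 ± 0.20. THSD4, a matrix protein that binds microfibrils, went from 8.43, 8.25 and 8.08 to 6.90, 6.53 and 6.37, a change of −1.65 ± 0.28. FOXP1 and THSD4 remained well above log2 4, and neither overlapped its controls.

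**Figure D1:**
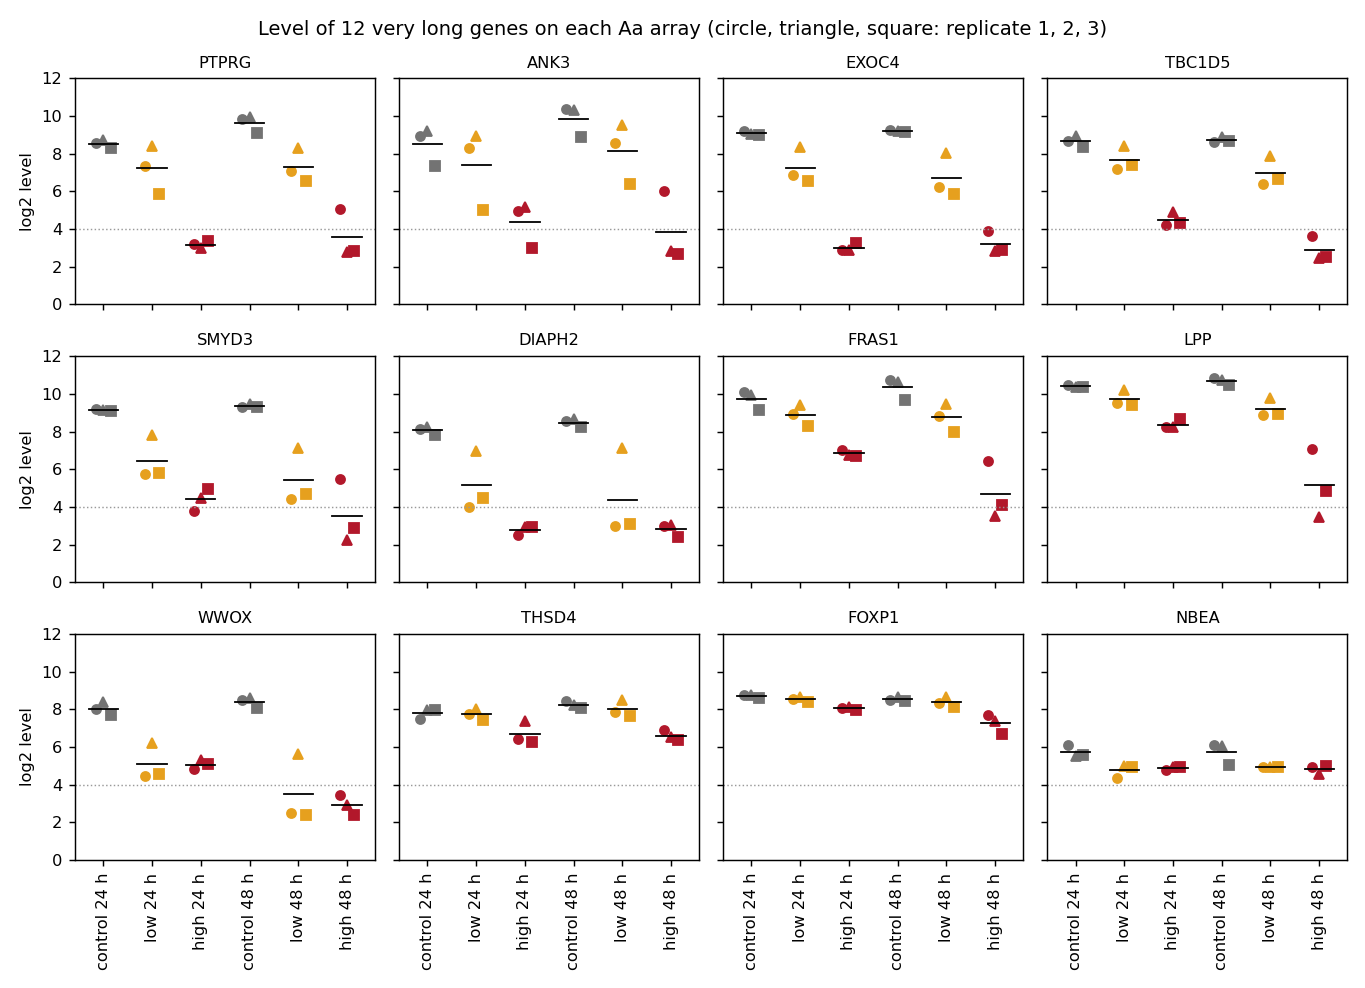
Log2 level (vertical axis, 0 to 12) of 12 very long genes on each array of the Aa family, grouped by dose and time; circles, triangles and squares are replicates 1, 2 and 3, black bars the group means and the dotted line log2 4. PTPRG, EXOC4 and DIAPH2 fall below the dotted line with the high dose at 24 h, FRAS1 and LPP stay above it at 24 h and have their lowest arrays at 48 h, and FOXP1 and NBEA move little.

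The counts and medians by role include DPYD, PTPRD, RBMS3 and RAD51B, which passed the filter only through their control arrays. Nothing is read from the direction of these 4. Each gene was filed under a single role. The 3 genes filed as fragile site genes and tested with Aa all were called lower with the high dose at 48 h, with a median change of −4.30. WWOX, an oxidoreductase with WW domains, went from 8.49, 8.58 and 8.08 to 3.44, 2.94 and 2.39. IMMP2L, a peptidase of the mitochondrial inner membrane, fell by 4.30, and DPYD, the rate-limiting enzyme of pyrimidine breakdown, by 2.41 from a low control level. All 6 genes of the cell surface and matrix were called lower, with a median of −3.84. Among them NRXN3, an adhesion protein of the neurexin family, fell by 3.32, PTPRD, a receptor phosphatase, by 2.52, and the glypican GPC6 by 4.37.

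All 7 membrane traffic genes were called lower, with a median of −5.28. LRBA, a relative of NBEA, fell by 5.48, VPS13B, a lipid transfer protein of the Golgi, by 5.28, the exocyst subunit EXOC6B by 4.40, and the Rab regulator RABGAP1L fell by 4.16. All 5 genes of the cytoskeleton and cell junctions were called lower, with a median of −5.55. Next to ANK3, DIAPH2 and LPP these were DOCK1, an activator of Rac, which fell by 4.0, and the polarity protein PARD3, which fell by 2.55.

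All 7 genes of the nucleus and RNA were called lower, with a median of −2.91. FTO, an RNA demethylase and the shortest of the genes, fell by 3.50, the RNA-binding protein RBMS3 by 3.98, the repressor ZBTB20 by 2.91, SUPT3H, a subunit of the SAGA complex, by 2.20, and RAD51B, a recombination protein, by 1.81. GMDS, the first enzyme of GDP-fucose synthesis, fell by 5.21. Changes ran from −1.27 to −5.81 among the genes of the nucleus and RNA, and from −2.55 to −6.02 among the cytoskeletal genes.

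The ACTB control probe sets give a sign of RNA quality, the level at the 3′ end minus that at the 5′ end. Its mean was 0.856, 0.900 and 1.05 at 24 h in control, low and high dose cultures of the Aa family, and 0.932, 1.05 and 1.35 at 48 h. Within each time it rose with the dose. The part of this shift in the changes was not tested.

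At 24 h of the high dose of Aa, 28 of the 29 were called lower, against 23.9% of all genes, with a median change of −3.02. In all 29 the treated arrays lay below the controls, as in 28.8% of all genes. The means of 10 went below log2 4, which was not counted over all genes. The exception among the calls was GPC6, at −1.28 ± 0.605, which read 8.11, 7.99 and 8.26 in controls and 6.79, 6.66 and 7.07 with the high dose. The largest fall at 24 h was that of EXOC4, from 9.21, 9.07 and 8.97 to 2.90, 2.87 and 3.28, a change of −6.06, so that EXOC4 was as low at 24 h as at 48 h.

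With the low dose, 16 of 29 were called lower at 24 h, against 13.0% of all genes, and 24 of 29 at 48 h, against 19.3%. The medians were −1.40 and −2.11, and 20 and 25 of the genes had no overlap with the controls, as did 22.4% and 24.5% of all genes in the same direction. At 24 h 3 of the genes, and at 48 h 8, went from at least log2 4 to below it, which was not counted over all genes. RABGAP1L had the largest fall at 24 h, with a change of −3.27, and GPC6 at 48 h, with −4.88. The 5 not called at 48 h were ANK3, FOXP1, LPP, THSD4 and ZBTB20. With the replicate number as a block 18 were called at 24 h, with TBC1D5 and VPS13B added, and 26 at 48 h, with ANK3 and ZBTB20 added.

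By role, all 3 genes filed as fragile site genes were called lower with the low dose at both times, with medians of −2.39 and −3.77. The counts by role here again include DPYD, PTPRD, RBMS3 and RAD51B, from whose direction nothing is read. WWOX changed by −2.95 with the low and −2.96 with the high dose at 24 h, and by −4.87 and −5.46 at 48 h. The membrane traffic genes had 4 and then 7 of 7 called with the low dose, with medians of −1.59 and −2.51, and the cytoskeletal genes 2 and then 3 of 5, with medians of −0.73 and −1.57. Surface and matrix genes had 2 and 5 of 6 called, and genes of the nucleus and RNA 4 and 5 of 7.

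Set against the low dose directly, the high dose was called lower in 13 of 29 at 24 h, against 9.79% of all genes, and in 16 of 29 at 48 h, against 24.5%. The means were lower with the high dose in 27 of 29 at 24 h and 26 of 29 at 48 h. This direction was not counted over all genes, and nothing is read from it. At 24 h the widest gaps were in EXOC4 (−4.24) and PTPRG (−4.04), and at 48 h in ANK3 (−4.32) and TBC1D5 (−4.12). GPC6 went the other way at 48 h, reading 3.24, 6.18 and 3.65 with the low and 5.16, 3.60 and 5.84 with the high dose, groups that overlap. These contrasts use the same arrays as the choice of the genes and are descriptions too.

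Between the times, the fall with the high dose was larger at 48 h than at 24 h in 22 of 29, and with the low dose in 27 of 29. That order was not counted over all genes, and nothing is read from it. For 5 genes the difference between times with the high dose was called, against 12.2% of all genes. LPP changed by −2.03 at 24 h and −5.55 at 48 h, GPC6 by −1.28 and −4.37, FRAS1 by −2.89 and −5.66, GMDS by −2.93 and −5.21, and ZBTB20 by −1.35 and −2.91. In these the fall deepened between 24 and 48 h, in contrast to EXOC4 above. With the replicate number as a block, 9 genes were called. Without replicate 1 of the 48 h high dose 8 were called. Leaving out replicate 2 or 3 of that group, replicate 1 or 2 of its control or replicate 3 of the 24 h control left 2, and replicate 1 or 2 of the 24 h high dose left 3. With the low dose limma called 0 in either direction, against 0.198% of all genes lower and 1.11% higher, and 5 were lower at an unadjusted p under 0.05. Counts at an unadjusted p, here and below, were not made over all genes, and nothing is read from them. Without replicate 2 of the 48 h low dose 3 were called lower.

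**Figure D2:**
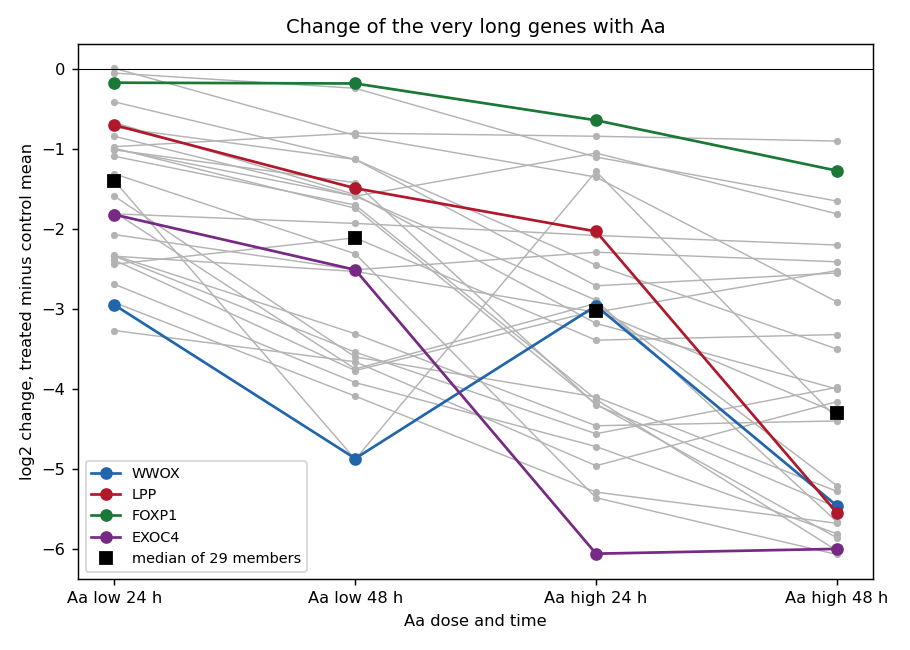
Log2 change against the control of the same time (vertical axis) for 29 very long genes in the 4 Aa groups (horizontal axis), with 1 grey line per gene, 4 genes in colour and squares for the median. The median goes from −1.40 and −2.11 with the low dose to −3.02 and −4.30 with the high dose; WWOX is already low with the low dose, LPP falls mainly at 48 h of the high dose, and EXOC4 is the lowest gene at 24 h of the high dose and about as low at 48 h.

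The replicates of the low dose were unequal. Replicate 2 had the highest level in 25 of 29 genes at 24 h and in 26 of 29 at 48 h. The median levels of replicates 1, 2 and 3 were 5.87, 6.99 and 5.78 at 24 h and 4.80, 7.14 and 4.81 at 48 h, where the control medians were 8.51, 8.64 and 8.25. DIAPH2 shows the size of the gap, with 2.96, 7.14 and 3.08 at 48 h, as does WWOX, with 2.52, 5.65 and 2.37. Over all genes replicate 2 was the highest in 33.3% and 37.3%, and over the other genes of 300 kb or more in 75.7% and 80.9%. In the controls replicate 2 was the highest in 15 of 29 at 24 h and 17 of 29 at 48 h, as in 31.2% and 32.3% of all genes. With the high dose at 48 h it was replicate 1 that was highest, in 21 of 29, with medians of 4.81, 2.88 and 2.96. That replicate was the highest in 40.1% of all genes and in 60.8% of the other genes of 300 kb or more.

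Replicate 2 also had the highest ACTB 3′ to 5′ difference of its group in all 6 groups of the Aa family, controls included (1.04 with the low dose at 24 h and 1.37 at 48 h). The part of it in the replicate order was not tested. Without replicate 2 of the low dose, 19 genes were called lower at 24 h and 24 at 48 h. Without replicate 1 or replicate 3 of the low dose at 24 h, 10 were called.

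Of the 29 genes, 25 had their lowest change of all comparisons in an Aa group, as did 14.4% of the 10914 genes tested with Aa and any other compound. For 16 of them, and for 10.8% of all genes, it came with the high dose at 48 h. In 25 the change with that group was below that of every group of the other 8 compounds, as in 12.2% of all genes, and with the low dose at 48 h this held for 18, as for 3.64%. All 31 genes tested with any other compound were called lower in at least 1 comparison of another compound, as were 78.8% of 11619 genes, and 23 were called higher in at least 1, as were 71.7%. The genes were chosen on these contrasts, and nothing is read from these shares.

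**Figure D3:**
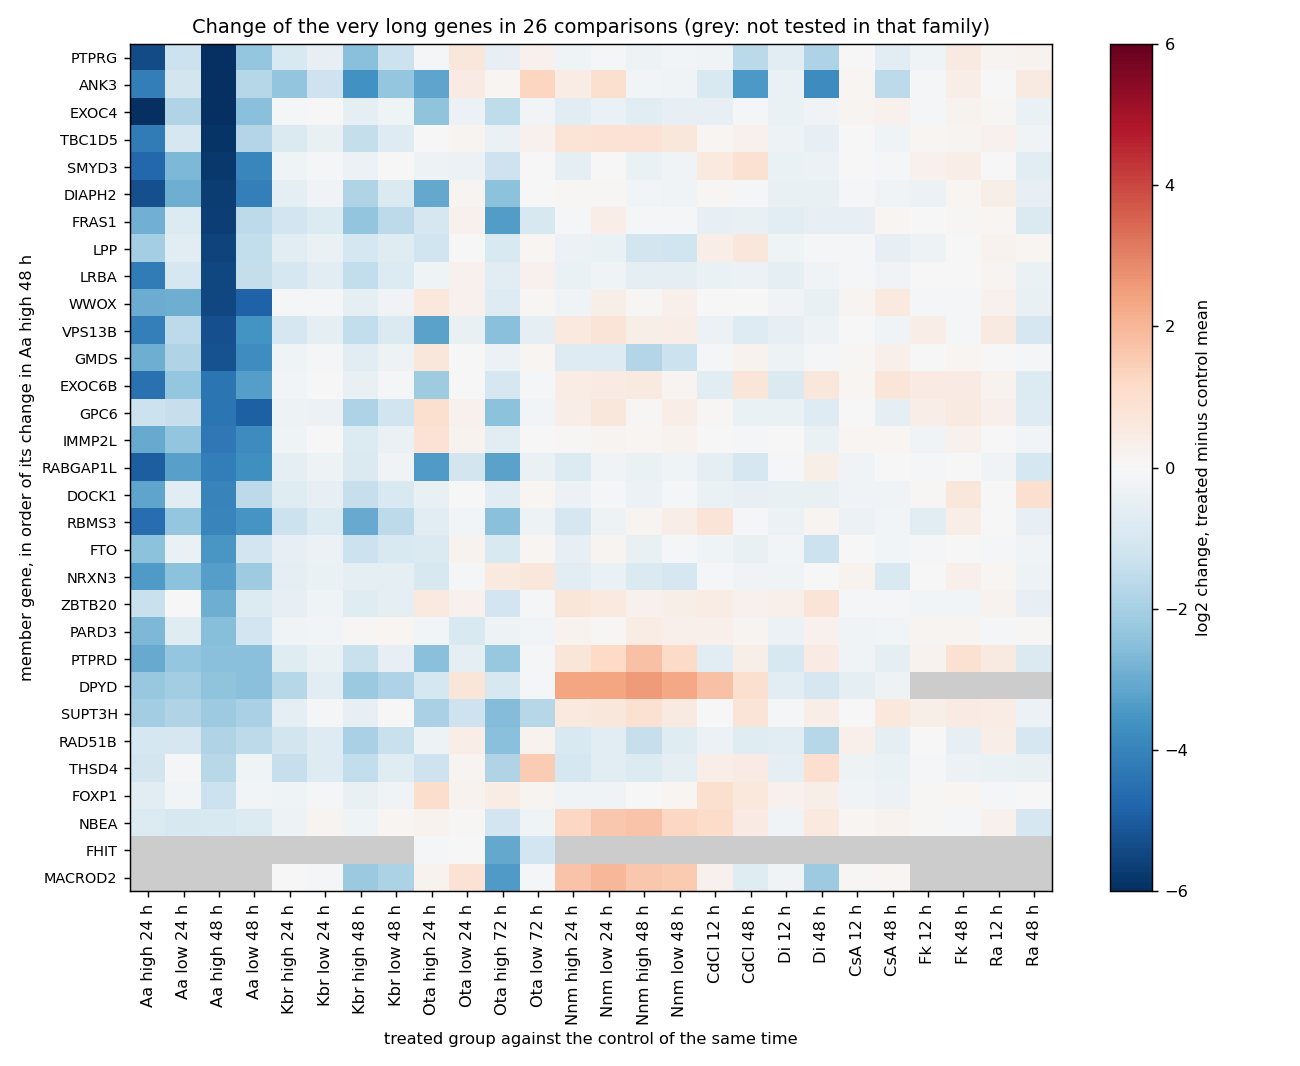
Log2 change (colour, blue lower and red higher, −6 to 6) of 31 very long genes (rows, in order of the change in Aa high 48 h) in the 26 treated groups against the control of the same time (columns); grey marks a gene not tested in that family. The 4 Aa columns are blue in nearly every row, the Kbr high 48 h and Ota high 72 h columns are paler, and the Nnm columns hold red rows for DPYD, NBEA and PTPRD.

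With Kbr the genes fell in the same direction to a smaller extent. The high dose was called lower in 13 of 30 at 24 h, against 13.4% of all genes, and in 23 of 30 at 48 h, against 28.9%, with medians of −0.54 and −1.33. The low dose was called lower in 0 of 30 at 24 h by limma, against 0.689%, with 9 at an unadjusted p under 0.05, and in 16 of 30 at 48 h, against 14.3%. None was called higher in the 4 groups, against 8.17% and 22.2% of all genes with the high dose at 24 and 48 h and 0.671% and 15.2% with the low dose. Without replicate 1 of the 24 h control the 13 became 7, and without replicate 3 of that control 1 was called lower with the low dose at 24 h. With the replicate number as a block, 4 were called lower with the low dose at 24 h.

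At 48 h of the high dose of Kbr the largest fall was in ANK3, from 10.32, 10.38 and 9.26 to 6.80, 7.10 and 5.11, a change of −3.65 ± 0.62. RBMS3 went from 6.41, 6.89 and 6.49 to 3.68, 3.09 and 3.97, a change of −3.01 ± 0.27. PTPRG went from 9.80, 9.69 and 9.61 to 7.26, 6.92 and 7.47, a change of −2.49 ± 0.27. Treated and control arrays of these genes did not overlap, and ANK3 and PTPRG remained above log2 4. Between times, 4 genes had a larger fall at 48 h, against 1.31% of all genes. These were DIAPH2 (−0.52 and −1.81), GPC6 (−0.31 and −1.83), PTPRG (−0.93 and −2.49) and RBMS3 (−1.31 and −3.01).

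In the Ota groups of the high dose, the same genes moved both ways at 24 h and mostly down at 72 h. At 24 h 15 of 31 were called lower and 5 higher, against 43.6% and 21.4% of all genes, with a median of −0.46. These are the arrays whose upper quartiles lay between 6.319 and 6.593, where those of their controls lay between 6.969 and 7.077. After quantile normalization, which sets all arrays to the same distribution, 12 were lower and 6 higher, with a median of −0.19. At 72 h 25 were called lower and 1 higher, against 37.9% and 25.3%, with a median of −1.14. The low dose had 1 gene called lower, PARD3, and 1 higher, PTPRG, at 24 h (9.99% and 3.72% of all genes). At 72 h 3 were lower and 2 higher (7.02% and 9.01%). Several of these few calls turned on 1 array, but at 24 h at least 1 gene was called lower whichever array was left out. At 24 h PTPRG was no longer called without replicate 2 or 3 of the control or replicate 1 or 2 of the low dose, and without replicate 3 of the low dose 2 genes were lower. At 72 h 1 was higher without replicate 1 or 3 of the control or any 1 array of the low dose, and 1 was lower without replicate 3 of either group. The mean ACTB 3′ to 5′ difference was 1.36 in the 72 h controls and 1.93 with the high dose, and at 24 h 1.16 and 1.21, and its part in these changes was not tested.

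At 72 h of the high dose of Ota, MACROD2, an ADP-ribosyl hydrolase, went from 5.97, 6.45 and 6.29 to 2.73, 3.66 and 2.16, a change of −3.39 ± 0.46. FRAS1 went from 11.77, 11.74 and 11.41 to 8.56, 8.49 and 7.85, a change of −3.34 ± 0.22. RABGAP1L went from 7.69, 7.80 and 7.49 to 5.50, 3.68 and 4.22, a change of −3.19 ± 0.38. MACROD2 thus went under log2 4 on all treated arrays, while FRAS1 stayed well above it. FHIT, a hydrolase at a fragile site, changed by −3.07, but it was tested in this family alone and passed the filter only through the 72 h controls, so nothing is read from its direction.

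The 2 times of the high dose of Ota differed for 13 genes that were lower and 4 that were higher at 72 h than at 24 h, against 20.6% and 32.7% of all genes. MACROD2 changed by 0.22 at 24 h and −3.39 at 72 h, and GPC6 by 0.98 and −2.48. ANK3 did the opposite, with −3.18 at 24 h and 0.11 at 72 h. With the low dose 1 gene, FRAS1, was lower at the later time, and PARD3 and THSD4 were higher, against 1.54% and 4.77%.

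With Nnm some of the genes were higher and others lower. The high dose had 5 genes called lower and 7 higher of 30 at 24 h, against 18.4% and 17.6% of all genes, and 6 lower and 8 higher at 48 h, against 12.3% and 15.4%. The low dose had 0 lower (by limma, with 4 at an unadjusted p under 0.05) and 9 higher at 24 h, against 9.13% and 9.39%, and 3 lower and 5 higher at 48 h, against 5.73% and 8.39%. The medians lay between −0.14 and 0.12. With the replicate block the calls lower were 10 for the high dose at 24 h, and 2 and 6 for the low dose at 24 and 48 h, and 9 were higher with the low dose at 48 h.

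Several of these Nnm counts turned on 1 array. With the high dose at 24 h, the genes called lower were 1, 10 or 2 without replicate 1, 2 or 3 of the dose and 3 without replicate 1 of the control, and the genes called higher were 3 without replicate 3 of the control. With the low dose at 24 h, 4 were higher without replicate 1 of the dose or replicate 3 of the control, and 2 were lower without replicate 2 of the dose. At 48 h of the low dose, 1 was lower without its replicate 1 and 6 without its replicate 2.

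The largest rise was that of DPYD, which read 4.25, 4.85 and 4.52 in the 48 h controls and 7.71, 6.21 and 7.35 with the high dose of Nnm, a change of 2.55 ± 0.39. PTPRD went from 4.94, 4.82 and 4.88 to 7.06, 5.93 and 6.86 (1.74 ± 0.27), and NBEA from 5.09, 5.97 and 5.80 to 7.81, 7.02 and 7.16 (1.71 ± 0.28). These 3 were called higher in all 4 Nnm groups, and they had low or middling control levels. In each, replicate 2 with the high dose was the lowest of the 3 treated arrays.

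MACROD2 was called higher in all 4 Nnm groups as well, but it passed the filter of this family only with its Nnm arrays counted. The filter thus favoured a rise in MACROD2, and nothing is read from its direction. The largest change of MACROD2 came with the low dose at 24 h, from 2.44, 2.88 and 2.13 to 4.99, 4.69 and 3.80 (2.01 ± 0.51). TBC1D5 went from 8.66, 8.88 and 8.70 to 9.89, 9.33 and 9.71 with the high dose at 48 h (0.89 ± 0.16), and SUPT3H from 6.85, 6.08 and 6.24 to 7.53, 6.98 and 7.39 (0.91 ± 0.24). EXOC6B had a smaller rise, from 6.50, 6.66 and 7.06 to 7.24, 7.10 and 7.44 (0.52), with a narrow gap between the groups.

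The falls with the high dose of Nnm at 48 h were led by GMDS, from 8.11, 7.86 and 8.01 to 6.46, 6.84 and 5.38 (−1.77 ± 0.31). RAD51B went from 4.68, 5.21 and 4.73 to 3.05, 3.96 and 3.46 (−1.38 ± 0.31), and LPP from 10.87, 10.75 and 10.69 to 9.62, 9.84 and 9.52 (−1.11 ± 0.14). None of these overlapped its controls, but RAD51B passed the filter only through its control arrays, so nothing is read from its direction. LPP and GMDS were called lower with Nnm at 48 h at both doses. With only the 6 arrays of this comparison in the fit, 1 gene was called lower and 3 higher. The 8 called higher became 4 without replicate 1 of the high dose.

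CdCl had 8 genes called lower and 8 higher of 30 at 12 h, against 34.3% and 14.5% of all genes, and 9 lower and 7 higher at 48 h, against 23.5% and 22.9%. Di had 10 lower and 0 higher at 12 h, against 8.23% and 3.61%, and 15 lower and 6 higher at 48 h, against 25.9% and 21.4%. The 10 called lower with Di at 12 h became 5 without its replicate 2 or without any 1 of the 3 controls. Falls were small except in a few genes. ANK3 read 9.29, 9.25 and 9.44 in the 48 h controls these compounds share, 5.80, 5.79 and 6.05 with CdCl and 5.86, 5.26 and 5.49 with Di, changes of −3.45 and −3.79. PTPRG changed by −1.61 and −1.83, and MACROD2 by −2.19 with Di.

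Rises with CdCl at 48 h included SMYD3, from 9.22, 8.84 and 9.27 to 9.99, 10.08 and 10.06 (0.93 ± 0.10), and LPP, from 9.91, 9.93 and 9.82 to 10.48, 10.44 and 10.75 (0.67 ± 0.10). These genes were among the 8 largest falls with the high dose of Aa. EXOC6B went from 6.55, 6.99 and 6.48 to 7.35, 7.35 and 7.49 with CdCl (0.72). ZBTB20 rose with Di at 48 h, from 10.02, 10.26 and 9.61 to 10.75, 10.73 and 10.66 (0.75 ± 0.16). In all 4 the treated arrays lay above the controls, by a small margin.

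Between 12 and 48 h, 4 genes were lower and 2 higher with CdCl, against 9.34% and 21.1% of all genes, and 5 were lower and 7 higher with Di, against 16.2% and 17.5%. ANK3 fell late with both, changing by −0.91 and −3.45 with CdCl and by −0.42 and −3.79 with Di. EXOC6B went the other way with both, from −0.63 to 0.72 and from −0.85 to 0.68.

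Of the other genes called higher more than once, FOXP1 had its largest rise with the high dose of Ota at 24 h, from 8.19, 8.31 and 8.55 to 9.18, 9.38 and 9.61 (1.04 ± 0.13). GPC6 went from 8.79, 9.15 and 8.67 to 9.79, 10.03 and 9.71 in the same group (0.98 ± 0.34). THSD4 rose with the low dose of Ota at 72 h, from 7.34, 7.28 and 7.78 to 9.07, 8.77 and 9.13 (1.52 ± 0.23). FOXP1 and THSD4, with small falls in Aa, thus each rose by 1 log2 unit or more elsewhere, and DPYD was called higher in 6 comparisons, more than any other of the genes.

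CsA, Fk and Ra moved these genes little. Limma called 0 genes at 12 or 48 h with CsA and with Fk and at 12 h with Ra, against 0% of all genes lower in each of these 5 groups, and 0% (CsA 12 h and Fk 48 h), 0.00925% (CsA 48 h), 0.00918% (Fk 12 h) and 0.0367% (Ra 12 h) higher. At an unadjusted p under 0.05, CsA at 48 h had 2 lower and 1 higher, Fk at 48 h 1 higher, and the other groups of the 5 none. With the replicate block 1 was called higher with CsA at 48 h. Ra at 48 h had 0 genes lower and 1 higher, against 7.46% and 1.87%. At an unadjusted p under 0.05, 10 were lower, a count that was not made over all genes. The 1 was DOCK1, which went from 7.03, 6.65 and 7.53 to 8.24, 7.81 and 8.10 (0.98 ± 0.21).

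The median change at Ra 48 h was −0.42. It was −0.23 without replicate 2, the array with the lowest upper quartile, and 0 genes were then called lower. Without replicate 1 of Ra 48 h 10 were called lower, and without replicate 3 of its control 3 were. DOCK1 was no longer called without replicate 1 or replicate 2 of that control.

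The other genes of 300 kb or more, which the choice did not name, fell with Aa too. With the high dose at 48 h, 276 of 309 tested (89.3%) were called lower, against 34.5% of all genes, and 4 higher. Their median was −2.60. At 24 h 256 (82.8%) were lower, against 23.9% of all genes, and 6 higher. With the low dose 82 (26.5%) were lower at 24 h and 202 (65.4%) at 48 h, against 13.0% and 19.3% of all genes. The share at 24 h of the low dose was 15.9% without its replicate 1, and about as low without its replicate 3 or without replicate 1 or 2 of the control. The median of the 29 described genes, −4.30, was further down than that of these genes, but the 29 were chosen on this value. The other long genes passed the same filter, and those that passed only through their controls were not counted. In any such gene the filter favoured a fall. Without a filter, the share of other long genes lower with the high dose at 48 h was 40.2%.

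The 5 largest falls among the other long genes resembled those above. SYT1, a calcium sensor of vesicle release that spans 588.0 kb, read 10.07, 10.15 and 9.52 in the 48 h controls, 6.64, 8.74 and 5.58 with the low dose and 5.07, 2.46 and 2.08 with the high dose of Aa, a change of −6.71 ± 0.87. PRKCB, a protein kinase C, went from 9.38, 8.82 and 8.86 to 3.59, 2.22 and 2.49 with the high dose (−6.25). In both, replicate 2 was the highest with the low dose and replicate 1 with the high dose.

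ARHGAP6 went from 9.45, 9.52 and 8.73 to 4.50, 2.57 and 2.61 with the high dose of Aa (−6.01). GPHN, the scaffold gephyrin, went from 9.62, 9.54 and 8.21 to 4.84, 2.19 and 2.44 (−5.97), and SLC44A5, a choline transporter-like protein, from 9.31, 9.61 and 8.19 to 4.0, 2.91 and 2.73 (−5.82). All 5 lost most of their signal on all 3 arrays.

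A few long genes rose. SOX6, a transcription factor gene of 772.0 kb, read 5.27, 5.81 and 5.27 in the 48 h controls and 7.44, 6.67 and 7.19 with the high dose of Aa (1.65 ± 0.24). DLC1 went from 8.66, 8.68 and 9.23 to 10.07, 10.06 and 10.56 (1.37 ± 0.23), and KCNAB1, a potassium channel subunit, from 4.44, 5.18 and 4.90 to 5.69, 5.77 and 6.26 (1.07 ± 0.31). In all 3 the arrays of the high dose lay above every control.

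The change with the high dose of Aa at 48 h differed by span over all other genes. The median was 0.14 under 10 kb, 0.23 at 10 to 30 kb, −0.07 at 30 to 100 kb, −0.90 at 100 to 300 kb and −2.60 at 300 kb or more. The share called lower was 23.1%, 20.8%, 33.5%, 68.7% and 89.3% in that order. Among the 100 genes with the largest falls, 16 were genes described here, 58 were other genes of 300 kb or more, 18 spanned 100 to 300 kb and 8 under 100 kb.

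With the other compounds the steps by span were smaller. In the longest class Kbr high 48 h had a median of −0.56 with 178 of 338 called lower (52.7%), and Ota high 72 h one of −0.47 with 155 of 347 (44.7%). In the Ota group the shortest class, under 10 kb, had a median as low, at −0.51. With Nnm high 48 h, 29 of 338 were called lower and 84 higher, with a median of 0.16. The share lower in this Nnm group, 8.58%, was 18.6% without its replicate 2, and 3.85% without its replicate 1 or 3.

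**Figure D4:**
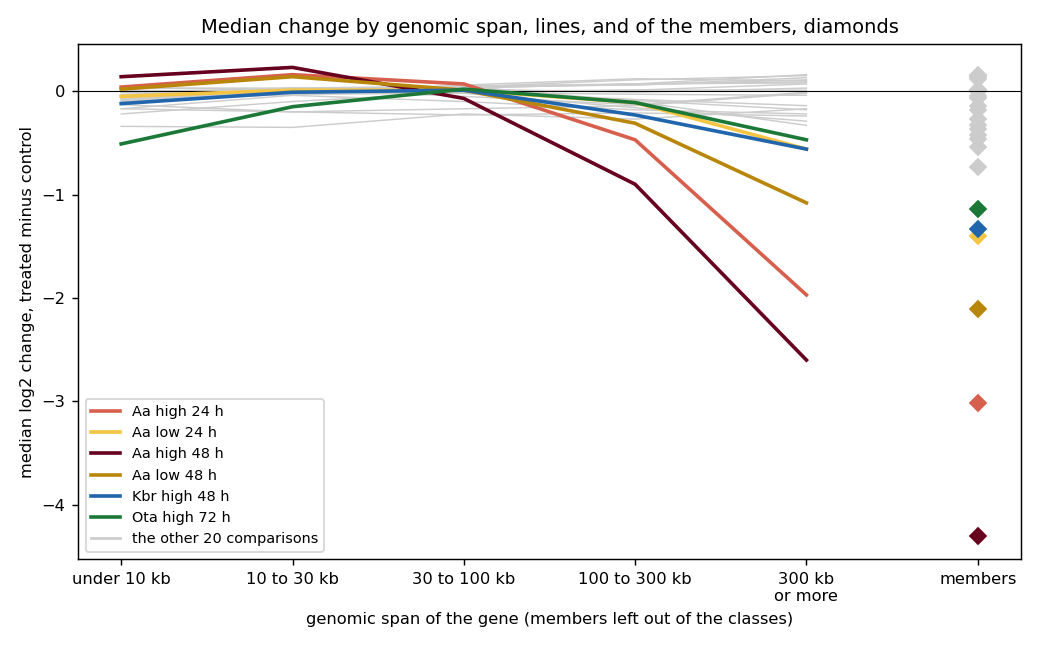
Median log2 change (vertical axis) of the genes in 5 classes of genomic span (horizontal axis, lines) and of the very long genes described here (diamonds), for the 26 treated groups. The Aa lines bend down from 100 kb on, to −2.60 for the high dose at 48 h, whereas most other lines stay near 0.

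Spearman correlation of span with the change with the high dose of Aa at 48 h was −0.369 across 11071 other genes, which share the same arrays. It was −0.249 for the high dose at 24 h, and −0.038 and −0.213 for the low dose at 24 and 48 h. Over the other compounds it ran from −0.257 with Di at 12 h to 0.234 with the low dose of Ota at 24 h. With Di at 12 h the share called lower was 3.44% under 10 kb and 17.2% at 300 kb or more, so an order by span was not particular to Aa. Within the 29 described genes it was −0.041 for the high dose at 48 h and −0.156 at 24 h, but −0.583 and −0.533 for the low dose at 24 and 48 h. Within the 29, a longer span went with a larger fall for the low dose, with no such order for the high dose at 48 h. The 29 were chosen on these changes, and DPYD, PTPRD, RBMS3 and RAD51B passed the filter only through their control arrays. Nothing is read from this order. The change of the 29 genes also went with the control level. That correlation was 0.454 and 0.249 for the low dose at 24 and 48 h, and −0.112 and −0.557 for the high dose. With the high dose at 48 h, 17 of the 29 means ended below log2 4. The part of the control level in the order by span was not tested. All these values are descriptions across genes, which are not independent replicates.

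**Figure D5:**
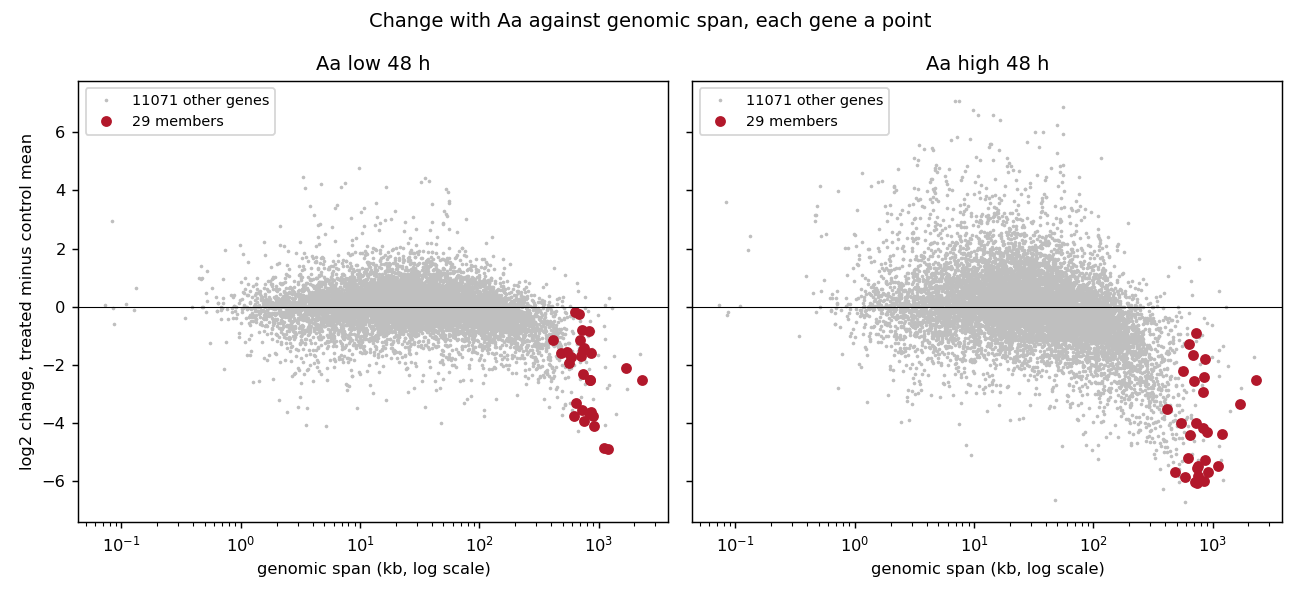
Log2 change (vertical axis) against genomic span in kb (horizontal log axis) for Aa low 48 h (left) and Aa high 48 h (right), with 29 very long genes in red and 11071 other genes in grey. Genes beyond 300 kb lie mostly below 0 in both panels, with a median of −1.08 at the low and −2.60 at the high dose among those not described here.

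Many of the genes have several probe sets, which give other readings of the same arrays. Of 138 probe sets, 71 from 30 genes had a control mean above log2 4 in the Aa family at 48 h. In 67 of these the 3 arrays of the high dose lay below all controls, as in 39.1% of all 19028 probe sets with such a control mean, in 1 above, and in 3 the groups overlapped. The 41 that did not represent their gene had a median change of −3.13, and 37 of them lay below. In 15 of 19 genes with several such probe sets, each lay below.

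The exceptions belonged to 4 genes. In LPP, 5 probe sets changed by −4.06 to −5.55, while another, with the suffix _x_at, was higher by 0.59. In THSD4, 1 probe set changed by −3.92 where the one that represents the gene changed by −1.65, and another was higher by 0.56 with overlap, and by 1.26 without overlap with the low dose. FOXP1 and DOCK1 each had 1 probe set with overlap, at −0.67 and −0.44. In ZBTB20 the probe set with the highest level changed by −2.91 and the others by −2.57 to −4.84.

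The control cultures themselves changed over time. They are the other side of the contrasts the genes were chosen on, so these changes are descriptions too, with calls as above. In the Aa controls 0 genes differed between 24 and 48 h, against 0.783% of all genes lower and 0.468% higher, and 1 was higher at an unadjusted p under 0.05 and 1 was called without replicate 3 at 48 h. In the controls of Nnm and Kbr 2 were higher at 48 h, against 0.308%.

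In the controls of Fk and Ra 12 of 28 were higher at 48 h than at 12 h and 0 lower, against 7.80% of all genes higher. FRAS1 went from 8.37, 8.36 and 8.46 to 10.63, 10.33 and 9.60, a rise of 1.79 ± 0.32. GPC6 went from 6.43, 6.20 and 7.13 to 7.96, 8.63 and 8.41, a rise of 1.75 ± 0.37. All later arrays lay above the earlier ones in these genes. Without replicate 2 of the 12 h control 6 genes were called, and without replicate 2 of the 48 h control 7.

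In the controls of CdCl and Di 11 of 30 were higher and 4 lower at 48 h, against 19.7% and 29.3% of all genes. MACROD2 went from 3.02, 2.92 and 2.45 to 5.01, 4.47 and 5.51, a rise of 2.21 ± 0.39. RAD51B went from 4.72, 4.02 and 3.40 to 5.55, 5.74 and 4.85, a rise of 1.33 ± 0.44. The falls were smaller. PTPRD went from 5.71, 5.74 and 5.99 to 4.25, 5.59 and 5.27 (−0.77 ± 0.31), and THSD4 from 7.79, 7.71 and 7.61 to 7.06, 7.28 and 7.47 (−0.44 ± 0.13). Without replicate 1 of the 48 h control 1 gene was called lower, and 2 without its replicate 3 or without replicate 1 or 2 of the 12 h control.

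In the Ota controls 5 of 31 were higher and 1 lower at 72 h than at 24 h, against 13.6% and 15.3% of all genes. FHIT went from 2.52, 2.09 and 2.10 to 4.78, 5.43 and 5.26, a change of 2.92 ± 0.34, and since it passed the filter only through these 72 h arrays nothing is read from its direction. MACROD2 went from 4.21, 5.23 and 3.75 to 5.97, 6.45 and 6.29, a rise of 1.84 ± 0.46. At 24 h FHIT was under log2 4 and the arrays of MACROD2 lay on both sides of it, and at 72 h both fragile site genes were above it. PARD3 fell from 8.93, 9.40 and 8.89 to 8.50, 8.52 and 8.41 (−0.59 ± 0.14).

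In the CsA controls 3 of 30 were higher at 48 h than at 12 h, against 6.89% of all genes. RAD51B went from 3.30, 3.70 and 3.03 to 5.80, 5.57 and 4.73, a rise of 2.03 ± 0.40, and DIAPH2 from 7.70, 7.52 and 7.77 to 8.43, 8.70 and 8.42, a rise of 0.85 ± 0.13. With the replicate number as a block 10 were called. In the controls of Nnm and Kbr, MACROD2 went from 2.44, 2.88 and 2.13 to 5.31, 5.39 and 3.44, a rise of 2.23 ± 0.51, and GPC6 from 8.60, 8.41 and 8.10 to 9.42, 9.43 and 9.28, a rise of 1.01 ± 0.20. Here the block raised the count to 6, and leaving out any 1 of these 6 arrays except replicate 3 at 48 h left 0.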

How the data were processed

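HK-2 RNA was measured on Affymetrix arrays in 38 groups of 3 replicates. Per the submitters' processing notes and the series' design text, the arrays were summarized with GCRMA and all data sets were normalized together, and the authors deposited a log2 value for each probe set on every array, used here without further change. Of 54675 probe sets, 41091 carry 1 gene symbol, 1801 several and 11783 none, and where a gene (19775 in all) had several, the one with the largest average level on all arrays stood for it. Probe sets near background lie close together at the bottom of this scale, so a fall that ends there may be understated. The number of arrays limits the precision.

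The members, the lists and the tests were chosen with earlier results of these data known. Group means were fitted per control family with limma 3.58.1 in R 4.3.3, with empirical Bayes moderation. The fits covered 11106 genes in the Aa family, 11036 in Nnm and Kbr, 11138 in Ota, 10806 in CsA, 10889 in Fk and Ra and 11045 in CdCl and Di. The p-values of each comparison were adjusted across its genes by the Benjamini-Hochberg method, and calls are those under 0.05. Fold is 2 to the power of the log2 difference. The procedure was tested on simulated data. The tables were made with Python 3.11.15, pandas 2.3.3, numpy 2.4.6 and scipy 1.17.1. Genomic spans and promoters came from RefSeq tables of GRCh38.p14, and 19735 genes had a span. The array's build is not given in the sources used here.

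All 36 genes may be named. Values of every array were given for the 8 largest and 3 smallest falls in Aa high 48 h, the 3 largest falls in Kbr high 48 h, Ota high 72 h and Nnm high 48 h, genes called higher in at least 2 comparisons, and the 2 largest called changes each way in controls. Among the other genes of 300 kb or more these were the 5 largest falls and 3 largest rises. WWOX, GPC6, DIAPH2, EXOC4, ANK3 and DOCK1 were given further array values after their values were seen.

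To check whether replicate numbers pair cultures, the residuals of a treated array were correlated with those of the control array of its number. The lowest, median and highest r were 0.28, 0.428 and 0.537 in the Aa family, 0.534, 0.799 and 0.931 in CsA and 0.139, 0.401 and 0.673 in Nnm and Kbr, all above 0.1, so the numbers were taken to pair the cultures there. In Ota, Fk and Ra, and CdCl and Di some were below. Alternatives were the replicate block, other filters, other probe set rules, quantile normalization, the trend option, fits of all arrays or of 1 comparison, other bounds of the longest class, a control mean above log2 6, and leaving out each array.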

Additional observations from a re-analysis of the deposited data

Results flagged for a closer look

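For some of the very long genes the change against control differed between the 2 times of a dose, by limma's test of that difference adjusted over all genes. Since the genes were chosen on the changes themselves, these are descriptions. With the high dose of Aa 5 of 29 genes were lower at 48 h than at 24 h, against 12.2% of all genes. These were FRAS1, GMDS, GPC6, LPP and ZBTB20. With the high dose of Kbr 4 of 30 were lower at 48 h, against 1.31%, namely DIAPH2, GPC6, PTPRG and RBMS3. GPC6 was the gene of both lists.

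Against 20.6% of all genes, 13 of 31 very long genes were lower at 72 h than at 24 h with the high dose of Ota. Besides MACROD2 and GPC6 these included FHIT (−0.14 and −3.07), ZBTB20 (0.57 and −1.14), IMMP2L (0.87 and −0.63) and WWOX (0.62 and −0.76). In the last 3 the change went from above to below 0. In the opposite direction, 4 genes were higher at 72 h, against 32.7% of all genes. These were ANK3 (−3.18 and 0.11), EXOC4 (−2.42 and −1.51), EXOC6B (−2.15 and −1.03) and NRXN3 (−0.94 and 0.59). With the low dose of Ota 1 gene was lower at the later time, FRAS1 (0.26 and −0.95), against 1.54% of all genes. There 2 were higher, THSD4 (0.16 and 1.52) and PARD3 (−0.93 and −0.18), against 4.77%.

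With CdCl 4 of 30 genes were lower at 48 h than at 12 h, against 9.34% of all genes. These were ANK3, GPC6, PTPRG (−0.21 and −1.61) and RBMS3 (0.78 and −0.05). With CdCl 2 were higher, EXOC6B and SUPT3H, against 21.1%. With Di 5 of 30 were lower at 48 h, against 16.2% of all genes. These were ANK3, FTO (−0.18 and −1.31), GPC6, MACROD2 (−0.22 and −2.19) and PTPRG (−0.69 and −1.83). With Di 7 were higher, against 17.5%, led by THSD4 (−0.53 and 1.02), EXOC6B (−0.85 and 0.68) and PTPRD (−0.95 and 0.51). The others were SUPT3H, RBMS3, PARD3 and LRBA. CdCl and Di were compared with the same controls, so genes found with both share those arrays.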

How the results depend on the processing

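All 29 genes tested stayed lower with the high dose of Aa at 48 h without any 1 array. Over planned settings other than leaving out an array, 335 of 384 summary values moved by less than the limit set for them (1.5 times for counts, 1 SD for medians), and 1338 of 1397 values of named genes kept their direction and call. The cause of the shifts was not tested, except that settings with fewer genes tested have fewer to call. PARD3 in Kbr high 48 h changed sign, from 0.09 to −0.31, with the mean of all probe sets. With that mean the medians were −1.70 and −2.45 for Aa high at 24 and 48 h and −0.58 for Kbr high 48 h, where no filter gave −0.88 and a control mean above log2 6 gave −1.05. Aa low 24 h had 10 called lower of 21 tested without _x_at and _s_at probe sets. Without a filter, other genes of 300 kb or more were lower in 36.6% (Aa high 24 h), 40.2% (Aa high 48 h), 8.77% (Aa low 24 h), 26.3% (Aa low 48 h), 21.9% (Kbr high 48 h), 3.64% (Nnm high 48 h) and 20.4% (Ota high 72 h). A fit of all arrays gave 39.8% in Aa low 24 h. In Nnm high 48 h the share was 0.592% with the arrays of the comparison alone and 16.0% with the replicate block, and the genes called there were 1 lower and 3 higher with those arrays alone, and 4 higher with a control mean above log2 6. In Ota high 72 h, 0 were higher with the mean of probe sets or without _x_at and _s_at, and 2 with its own arrays.

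With the replicate block the difference of Aa high between times had 9 called, that of Aa low 2, the CsA controls 10, and the Nnm and Kbr controls 6. Beside these, the share above and the counts given in the report for Nnm, Kbr low 24 h and CsA 48 h, the block moved no count of the paired families by over 1.5 times. The Aa high difference had 1 without a filter, 3 with the mean of probe sets or without _x_at and _s_at, and 10 in the fit of all arrays. For Aa low it had 1 with the mean or the trend option and 2 with all arrays. In controls, CdCl and Di had 6 higher without _x_at and _s_at or with all arrays, and 2 lower without a filter and 0 with all arrays. CsA had 0 with the mean and 5 with all arrays. Fk and Ra had 1 lower with the mean. Nnm and Kbr had 1 without a filter, with all arrays or with control means above 6, and 0 with their own arrays. Ota had 3 higher at a filter of log2 6, 9 with its own arrays and 2 with control means above 6, and 0 lower without _x_at and _s_at and 2 with its own arrays.

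Leaving out 1 array at a time gave these lowest and highest values. Medians were −3.14 to −2.97 (Aa high 24 h), −4.38 to −3.97 (Aa high 48 h), −1.91 to −1.38 (Aa low 24 h), −2.53 to −1.96 (Aa low 48 h), −1.36 to −1.19 (Kbr high 48 h), −0.21 to 0.06 (Nnm high 48 h) and −1.21 to −0.97 (Ota high 72 h). Genes called lower were 27 to 28, 29 to 29, 10 to 19, 20 to 24, 22 to 23, 4 to 9 and 22 to 25 in that order, and higher 4 to 8 with Nnm and 1 to 1 with Ota. Dose calls were 10 to 15 at 24 h and 13 to 17 at 48 h, with 0 to 1 higher at 48 h, and time calls 2 to 8 (Aa high) and 0 to 3 (Aa low). In controls, higher calls were 0 to 1 (Aa), 0 to 2 (Nnm and Kbr), 4 to 5 (Ota), 2 to 3 (CsA), 6 to 12 (Fk and Ra) and 10 to 13 (CdCl and Di), and lower calls 1 to 1 (Ota), 0 to 0 (Fk and Ra) and 1 to 5 (CdCl and Di). Shares of other long genes were 80.3% to 81.9%, 86.7% to 89.6%, 15.9% to 33.3%, 46.6% to 67.3%, 43.2% to 49.7%, 3.85% to 18.6% and 42.7% to 44.7% in the order of the medians. In the other comparisons 118 of 150 counts stayed within 1.5 times of the full value when 1 array was left out. Change by protein length was not run.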
